A study of Mus musculus with 15 samples.

Results

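The binding sites of NRL near 10 genes that start DNA replication were followed across the development of the mouse retina. The genes were Mcm2, Mcm4, Mcm5, Mcm6, Mcm7, Pcna, E2f1, E2f3, Ccne1 and Ccne2. Every peak that the authors' annotation assigned to one of these symbols was taken, with no further rule on its signal. The deposited table holds called peaks, so a peak listed at 1 age alone was in part chosen by its signal there. The choice gave 13 peaks of the 8996 in the table. E2f3 held 3 of them, Ccne1 held 2 and each other gene held 1. NRL is the Maf-family transcription factor that sets rod photoreceptor identity. Its sites were mapped by CUT&RUN, in which an antibody bound to chromatin in permeabilised cells guides a nuclease that cuts out the DNA around the bound protein. Each experiment used 250000 dissociated cells from retinas of C57BL/6J mice with an anti-NRL antibody, at P2, P4, P10 or P28 (the number is the postnatal day), with no genotype or treatment other than age named in the labels. The labels list 15 libraries, and 8 of them, 2 per age, have a column in the table. These are replicates 1 and 4 for P10 and replicates 3 and 4 for the other ages.

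The products of these genes act at the passage from G1 into S phase. Cyclin E, encoded by Ccne1 and Ccne2, activates CDK2, the retinoblastoma proteins are phosphorylated, and E2F factors are freed to turn on the genes of DNA synthesis. The MCM proteins form the hexameric helicase that is loaded on origins in G1 and unwinds DNA in S phase, and PCNA is the sliding clamp that holds the polymerases on DNA. In the mouse retina, progenitors still divide in the first days after birth, most rods are born around birth, and the mature rod no longer divides.

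The libraries held from 49430 (P2 replicate 4) to 227692 (P10 replicate 4) reads in peaks. Values are RPKM, that is, reads divided by the width of the peak and by the scale of the library, rebuilt from recovered whole reads, and 3 reads in a peak of median width were worth 1.16 to 1.77 RPKM. Reads in peaks made up 0.940% and 0.986% of the library scale at P2, 1.09% and 2.15% at P4, 2.84% and 3.08% in the P10 libraries, and 1.51% and 1.52% in those of P28, so all peaks together moved with age. P4 replicate 4 stood apart from P4 replicate 3 in this share. All 7 rod marker genes examined (Gnat1, Pde6a, Pde6b, Cnga1, Nrl, Nr2e3 and Sag) had a peak, with a summed mean of 43.8, 95.1, 371 and 213 RPKM at P2, P4, P10 and P28. None of the 5 Müller glia markers, the 7 markers of amacrine, horizontal and ganglion cells or the 5 of microglia and vessels had one. Of the other lists, 1 of 4 bipolar genes (Trpm1), 1 of 4 pigment epithelium genes (Mitf) and 1 of 6 progenitor genes (Notch1) had a peak. That of Notch1 measured 4.42, 10.9, 15.2 and 1.56 RPKM on average from the youngest to the oldest age; its rise to P10 and fall to P28 moved with several of the replication peaks, and its part in them was not tested. A peak marks NRL signal at a gene and does not measure the share of a cell type.

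Of the 13 peaks, 11 lay within 1 kb of a start site and 2 were annotated as distal intergenic. The promoters of 5 genes are shown here, because their peaks cover the start site and because they hold, or lack, the E2F letters by which this family of genes is usually recognised. The sequences are RefSeq's, of GRCm38.p6, from 250 bases before to 50 after the RefSeq start, 5′ to 3′ on the gene's strand. Capitals mark matches to an E2F site (TTTGGCG or TTTCCCG or TTTGCCG or TTTCGCG) or to the core of a cAMP response element (CRE, TGACG), on either strand, and matches that overlap run together. Mcm5 is at chr8:75109259-75109558 (plus strand), Mcm6 at chr1:128359656-128359955, E2f3 at chr13:29986014-29986313, Pcna at chr2:132253131-132253430 and Mcm2 at chr6:88898731-88899030 (all minus strand).
Mcm5: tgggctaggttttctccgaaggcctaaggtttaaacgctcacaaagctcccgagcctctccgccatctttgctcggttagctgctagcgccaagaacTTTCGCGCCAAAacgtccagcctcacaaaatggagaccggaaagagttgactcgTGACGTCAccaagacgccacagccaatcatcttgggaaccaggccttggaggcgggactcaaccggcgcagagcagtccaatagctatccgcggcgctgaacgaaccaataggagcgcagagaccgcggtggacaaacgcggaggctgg
Mcm6: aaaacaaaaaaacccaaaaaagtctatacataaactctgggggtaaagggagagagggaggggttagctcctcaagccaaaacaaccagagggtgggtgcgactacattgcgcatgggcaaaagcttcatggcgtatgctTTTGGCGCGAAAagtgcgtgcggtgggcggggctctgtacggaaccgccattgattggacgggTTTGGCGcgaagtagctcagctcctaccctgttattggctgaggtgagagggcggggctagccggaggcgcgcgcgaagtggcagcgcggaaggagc
E2f3: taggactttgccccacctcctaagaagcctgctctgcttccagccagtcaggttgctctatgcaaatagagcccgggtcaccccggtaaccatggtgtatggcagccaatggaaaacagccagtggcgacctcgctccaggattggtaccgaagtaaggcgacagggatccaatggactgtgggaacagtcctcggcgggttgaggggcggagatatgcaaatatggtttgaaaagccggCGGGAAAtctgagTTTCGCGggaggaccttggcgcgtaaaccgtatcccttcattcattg
Pcna: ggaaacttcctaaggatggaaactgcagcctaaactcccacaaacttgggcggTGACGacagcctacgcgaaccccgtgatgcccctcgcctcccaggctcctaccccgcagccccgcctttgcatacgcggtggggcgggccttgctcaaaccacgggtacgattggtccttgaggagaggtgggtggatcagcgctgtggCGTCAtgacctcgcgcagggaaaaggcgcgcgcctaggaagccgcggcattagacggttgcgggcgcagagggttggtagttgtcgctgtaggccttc
Mcm2: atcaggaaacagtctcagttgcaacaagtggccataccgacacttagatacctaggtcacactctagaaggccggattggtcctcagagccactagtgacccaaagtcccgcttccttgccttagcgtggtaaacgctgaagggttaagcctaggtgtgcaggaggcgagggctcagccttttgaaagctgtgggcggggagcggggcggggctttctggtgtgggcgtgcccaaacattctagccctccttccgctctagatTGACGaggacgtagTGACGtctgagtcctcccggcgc

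The promoter table held 8 of the 10 genes, all but Mcm4 and Ccne2. An E2F site was found in 3 of the 8 (Mcm5, Mcm6 and E2f3), against 8.04% of 21262 promoters of the same length. In Mcm5 it was a pair of overlapping matches on opposite strands, in Mcm6 such a pair and a single match, and in E2f3 a match on each strand either side of the start. The CRE core was in 4 of the 8 (Mcm2, Mcm5, Pcna and E2f1), against 23.6% of all. Mcm5 held it as a palindrome, with both strands matching. A CCAAT box (CCAAT) was in 6 of the 8, against 38.2%, and a GC box (GGGCGG) in 7 of the 8, against 46.2%. The core of the NRL/MAF element (TGCTGA) was in 0 of the 8, against 18.1% of all promoters. The AP-1 element (TGACTCA) and the CRX site (TAATCC) were also in 0 of the 8, against 4.66% and 6.42%. The 8 promoters were 55.3% to 77.3% G and C (median 59.5%, against 56.3% over all promoters) and held 16 to 48 CpG (median 25.5, against 13). The matches are descriptions of letters in these windows, which cover only part of each peak that they touch. They hold 190 bases of the 462 bp peak of Mcm2, 169 of 359 for Mcm7 and 125 of 321 for the Ccne1 promoter peak. The rest of each peak was not searched. The upstream and distal peaks of E2f3, the distal peak of Ccne1 and the peak of E2f1 lie outside these windows. The window of E2f1 lies inside the gene by its RefSeq edge, so the matches counted for E2f1 are not in its peak.

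The authors' 4 peak lists, 1 per age, held 2, 6, 12 and 4 of the 13 peaks at P2, P4, P10 and P28, counting overlaps of 1 bp or more. These were 15.4%, 46.2%, 92.3% and 30.8% of the 13, beside 13.5%, 35.0%, 83.2% and 38.6% of all 8996 peaks. The start-site peak of E2f3 was in all 4 lists. Pcna was the other gene in the P2 list, and was listed at P4 and P10 too. Mcm2 was listed at P4, P10 and P28, and so was the distal peak of Ccne1. Mcm5 was listed at P4 and P10, Mcm4 at P10 and P28, and Mcm7 at P4 only. Mcm6, Ccne2, E2f1, the promoter peak of Ccne1 and the upstream and distal peaks of E2f3 were listed at P10 only. Lists of 1221, 3161, 7520 and 3482 peaks differ in length, so that presence moves with length: among the strongest 1221 peaks of each list, the counts were 2, 0, 2 and 1. By rank of the authors' own signal within a list, E2f3 upstream at P10 was 1108 of 7520 (14.7% down the list) and Mcm2 at P10 was 1169 (15.5%). Mcm4 at P28 was close to these, at 556 of 3482 (16.0%).

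**Figure D1:**
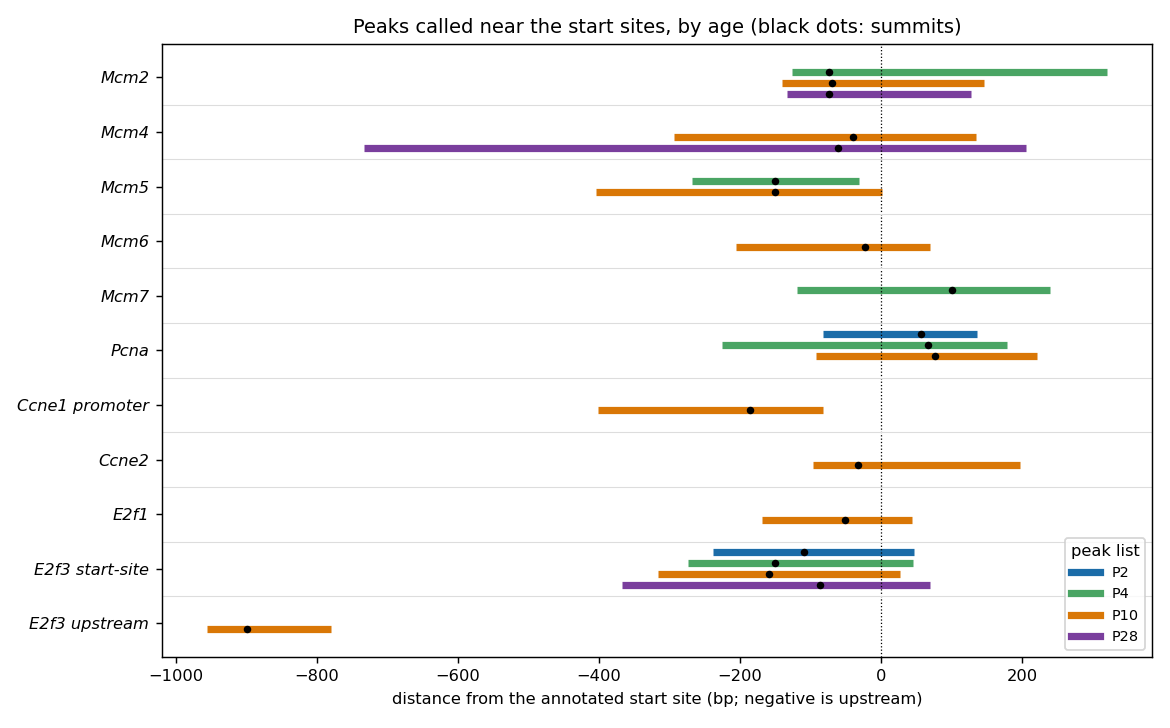
Intervals of the 11 peaks near start sites in the authors' list of each age (coloured bars), by distance in bp from the start site of the authors' annotation (negative is upstream, dotted line at the start); black dots are summits. The E2f3 start-site peak has a bar at all 4 ages, and E2f3 upstream has 1 bar, at P10, with its summit at -899 bp.

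Where a peak was listed at several ages, its summits are given for each. Those of Mcm4 lay at -40 and -61 bp from the annotated start at P10 and P28. Those of the distal Ccne1 peak lay at 14350, 14312 and 14353 bp at P4, P10 and P28. The summit of Mcm5 was the same base at P4 and P10, at -150 bp from the annotated start. It lay 2 bases from the palindromic CRE core in the sequence shown above and 52 bases from the E2F pair. The Mcm2 summit lay at -74, -70 and -74 bp in the lists of P4, P10 and P28, and 12 to 16 bases from a GC box. The Pcna summits, at 57, 67 and 76 bp downstream of the annotated start at P2, P4 and P10, lay 6 to 25 bases from a CCAAT box, upstream of the RefSeq start used for the sequence. The summits of the E2f3 start-site peak lay at -87 to -159 bp and 0 to 14 bases from a CCAAT box, and 77 to 149 bases from the E2F letters. With 44 matches in 8 promoters of 300 bases, such distances are short for many positions and no test was made of them. The peak of Mcm4 (chr16:15637194-15638133) also holds an edge of the neighbouring gene Prkdc in the RefSeq table, and that of Pcna (chr2:132253093-132253539) an edge of Cds2, so their signal cannot be assigned to 1 gene of the pair.

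E2f3, which encodes an E2F factor that activates S-phase genes, had the strongest and the weakest of the 13 peaks. Its upstream peak (chr13:29986843-29987019, 177 bp wide and 780 bp upstream of the start) measured 3.56 and 3.22 RPKM at P2, 2.87 and 10.49 at P4, 30.27 and 33.84 in the P10 libraries, and 7.0 and 5.55 in those of P28. Both P10 libraries were above all 6 others, and the P2 and P4 libraries overlapped. In reads these were 5, 3, 4, 13, 34, 48, 8 and 6. The start-site peak (chr13:29985994-29986430) measured 4.61 and 4.79 RPKM at P2, 2.91 and 8.17 at P4, 14.42 and 9.42 in the P10 libraries, and 8.51 and 7.12 in those of P28. Its P10 libraries were also the highest, but by a smaller margin. The distal peak (chr13:30011829-30012347) was between 0.49 and 2.64 RPKM in all 8 libraries, from 2 to 11 reads, with both P10 libraries above and both P4 libraries below all others. By mean RPKM over the libraries, the upstream peak was above 93.0% of all peaks and the distal peak above 1.45%.

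E2f1, the other activator E2F of the set, measured 2.94 and 2.67 RPKM at P2, 0.59 and 5.34 at P4, 2.95 and 5.83 in the P10 libraries, and 4.34 and 3.83 in those of P28 (chr2:154569848-154570061). The P4 libraries spanned the values of all other libraries but P10 replicate 4. Its peak covers the start of the authors' annotation, which is also the edge of the gene in the RefSeq table. The RefSeq start used for the promoter sequence lies 422 bp from the peak, inside the gene.

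The cyclin E genes were low at P2 and highest at P10. The promoter peak of Ccne1 (chr7:38107616-38107936) measured 1.96 and 0 RPKM at P2, 2.37 and 2.67 at P4, 7.36 and 9.72 in the P10 libraries, and 5.31 and 2.55 in those of P28, where the 0 in P2 replicate 4 allows up to 1.78 RPKM (3 reads). Its distal peak, 14128 bp from the nearest annotated start of the gene (chr7:38084715-38085241), measured 2.15 and 0.72 RPKM at P2, 3.37 and 4.88 at P4, 7.18 and 9.94 in the P10 libraries, and 4.70 and 4.35 in those of P28. At both peaks the P10 libraries lay above all others and the P2 libraries below all others. Ccne2 (chr4:11191255-11191548) measured 0 and 1.29 RPKM at P2, 2.59 and 0.97 at P4, 3.22 and 4.67 in the P10 libraries, and 2.11 and 1.67 in those of P28. The 0 in P2 replicate 3 allows up to 1.29 RPKM, and the P2 libraries held 2 reads together, against 17 at P10.

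The genes of the 5 helicase subunits had their highest means at different ages, Mcm2 and Mcm5 at P10, Mcm4 and Mcm6 at P28 and Mcm7 at P4. Mcm2 (chr6:88898459-88898920) measured 1.64 and 2.06 RPKM at P2, 3.02 and 7.11 at P4, 15.01 and 9.45 in the P10 libraries, and 6.37 and 3.90 in those of P28, with P10 above and P2 below all other libraries. Mcm5 (chr8:75109164-75109570) measured 3.71 and 2.34 RPKM at P2, 3.43 and 7.02 at P4, 6.58 and 7.05 in the P10 libraries, and 3.04 and 2.41 in those of P28. Its P10 libraries overlapped with those of P4 and lay above those of P2 and P28. Mcm7 (chr5:138171027-138171385) measured 4.56 and 1.06 RPKM at P2, 4.95 and 8.35 at P4, 2.63 and 4.52 in the P10 libraries, and 5.18 and 4.10 in those of P28. It was the only one of the 5 with its highest mean at P4, 6.65 ± 2.40 (SD, n = 2), and its P2 libraries overlapped with those of P10 and P28. Mcm6 (chr1:128359594-128359870) ranged from 1.83 to 5.91 RPKM, and Mcm4, measured over the shared peak, from 1.47 to 3.95 RPKM, with no age apart from all others. The value of Mcm6 in P28 replicate 4, its highest, rests on 10 reads recovered with an inferred width.

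Pcna measured 2.25 and 3.83 RPKM at P2, 4.26 and 5.43 at P4, 2.82 and 3.91 in the P10 libraries, and 2.77 and 3.66 in those of P28. The P4 libraries were the highest, and those of P2, P10 and P28 overlapped. The clamp gene and Mcm6, which both carried a P10 listing, thus did not differ between P2 and P10 beyond the spread of their libraries.

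**Figure D2:**
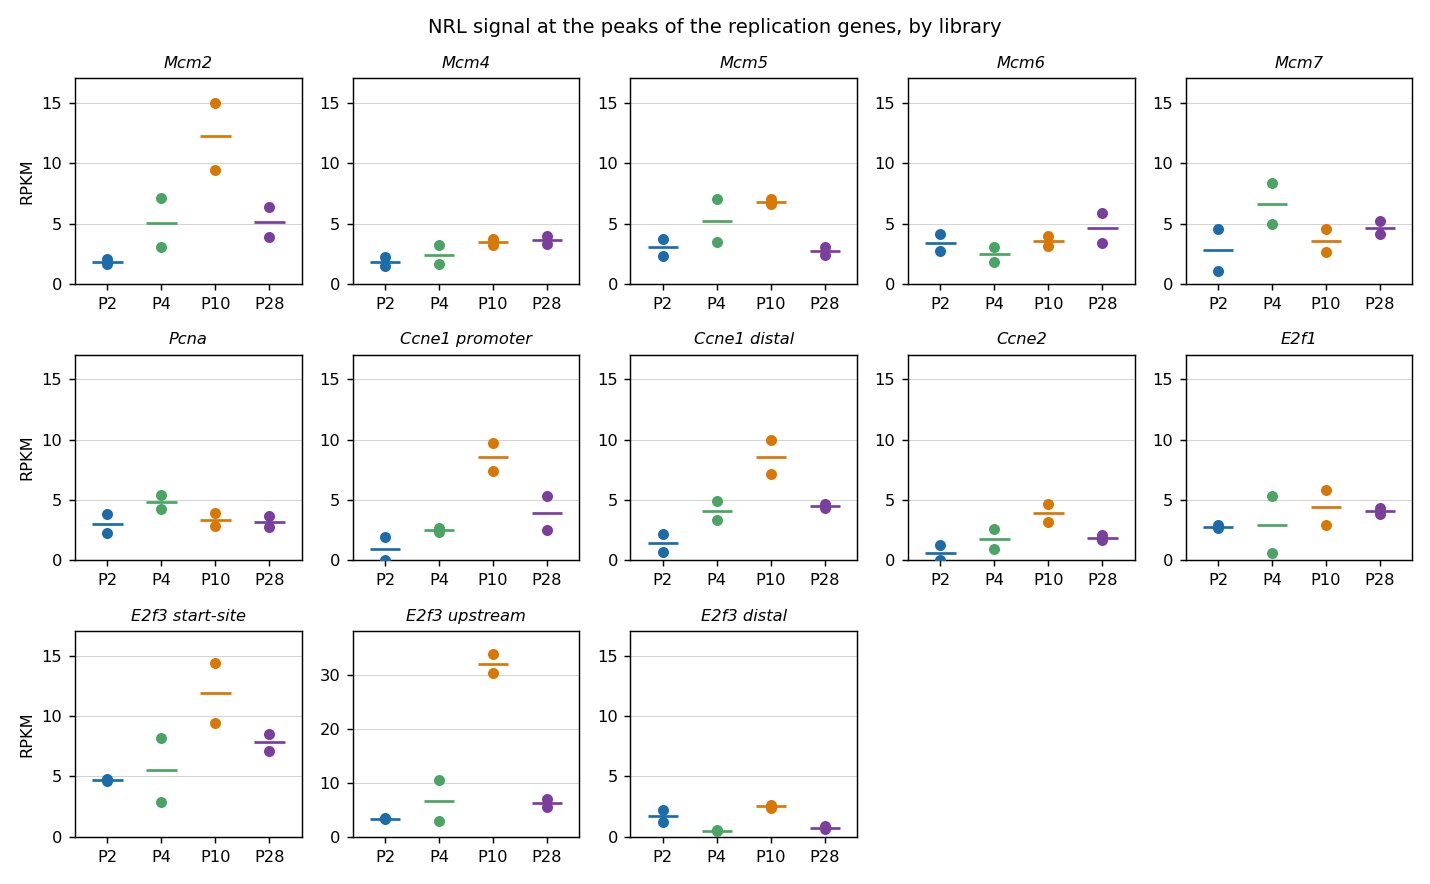
RPKM of each of the 13 peaks in each of the 8 libraries (points) by age, with the mean of the 2 libraries as a line; the vertical axis runs to 17 RPKM, and to 38 for E2f3 upstream. E2f3 upstream at P10 (30.27 and 33.84 RPKM) stands far above its other ages, Mcm2 and both Ccne1 peaks are highest at P10, and Mcm6, Pcna and E2f1 show no age apart from all others except Pcna at P4.

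Ages were compared in 1 limma fit on log2(RPKM + 1) over all 8996 peaks, with Benjamini-Hochberg adjustment over all of them. A difference was called at an adjusted p under 0.05. The comparisons share libraries with each other, so their values are given side by side only. Peaks listed at P10 only, among them E2f3 upstream, the promoter peak of Ccne1 and Ccne2, were partly chosen by their P10 signal. Their differences at P10 in part restate that choice and are no separate support. From P2 to P10, 5 of the 13 peaks rose and 0 fell, where 50.0% of all peaks were called and 48.5% rose (1.56% fell), so the count was no higher than the background. E2f3 upstream rose by 2.91 ± 0.56 (SE, log2; adjusted p = 0.00040, limma), the promoter peak of Ccne1 by 2.46 ± 0.52 (adjusted p = 0.00077, limma), Mcm2 by 2.19 ± 0.52 (adjusted p = 0.0021, limma) and the distal peak of Ccne1 by 2.02 ± 0.49 (adjusted p = 0.0023, limma). Ccne2 rose by 1.69 ± 0.49 (adjusted p = 0.0078, limma). With its 2 reads at P2, the ratio of its scaled reads was 7.81, with an exact 95% interval of 1.85 to 69.7 that covers counting error only. Without P2 replicate 3 the call of Ccne2 was lost (1.09, adjusted p = 0.11), and without P10 replicate 4 as well (1.48, adjusted p = 0.088). The other 4 calls held without each library in turn. Leaving out either P4 library leaves every difference between P2 and P10 as it was and changes only the spread pooled over all peaks.

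The 8 peaks that were not called from P2 to P10 had differences from 0.06 (Mcm6) to 1.15 (E2f3 start-site) on the log2 scale. The intervals of Mcm6 (95%, -0.92 to 1.04) and Pcna (-0.84 to 1.10) left out the median of all peaks, 1.18. Those of E2f1 (-0.68 to 1.58) and Mcm7 (-0.68 to 1.48), whose differences were 0.45 and 0.40, included both 0 and that median. The median over the 13 peaks was 0.98. In 10 of the 13, both P10 libraries lay above both P2 libraries, where 79.2% of all peaks did, and 0 of the 13 lay below (3.72% of all). In retinal tissue, more NRL-bound cells and more NRL signal per cell cannot be told apart.

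The rise at P10 moved with the share of the library scale that fell in peaks. With each library centred on its own median over all peaks, which took 1.18 off every difference between P2 and P10, 1 of the 13 peaks was still called, E2f3 upstream (1.73, adjusted p = 0.011), where 13.0% of all peaks were. Mcm2 then differed by 1.00 (adjusted p = 0.11), the promoter peak of Ccne1 by 1.28 (0.11), its distal peak by 0.84 (0.18) and Ccne2 by 0.51 (0.59). All 13 differences between P10 and P2 were positive in the fit without centring, and 5 of the 13 after centring. Mcm6 then differed by -1.12 (adjusted p = 0.075) and Pcna by -1.06 (adjusted p = 0.095). Relative to the other sites of the same library, 5 peaks were thus above the change of the median site and 8 below it, and the part that library enrichment had in the differences was not tested.

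From P4 to P10, E2f3 upstream was the 1 called peak of 13, where 17.1% of all peaks were called. It rose by 2.31 ± 0.56 (SE, log2; adjusted p = 0.0084, limma), and by 1.60 with centring (adjusted p = 0.030; 6.14% of all peaks called). The call was lost without P4 replicate 3 (1.52, adjusted p = 0.068), without P10 replicate 1 (adjusted p = 0.077) and without P10 replicate 4 (adjusted p = 0.079). The next largest rises did not pass: the promoter peak of Ccne1 differed by 1.43 (adjusted p = 0.056) and E2f3 distal by 1.22 (adjusted p = 0.058). Leaving out a P2 or P28 library leaves both differences as they were and changes only the pooled spread. Without P4 replicate 4, Mcm2 differed by 1.68, E2f1 by 1.70 and E2f3 start-site by 1.70. Without P4 replicate 3 instead, Mcm2 differed by 0.67. In 8 of the 13 peaks both P10 libraries lay above both P4 libraries (58.9% of all peaks), and in 2, Mcm7 and Pcna, both lay below (6.31% of all peaks).

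From P10 to P28, E2f3 upstream was again the 1 called peak of 13, where 21.9% of all peaks were called and 20.7% fell. It fell by 2.19 ± 0.56 (SE, log2; adjusted p = 0.0086, limma), and by 1.59 with centring (adjusted p = 0.022; 12.8% of all peaks called). This call was lost without P10 replicate 1 (adjusted p = 0.068), without P10 replicate 4 (0.079) and without P28 replicate 4 (0.059). Mcm2 differed by -1.11 (adjusted p = 0.13) and Mcm5 by -1.07 (adjusted p = 0.11). Leaving out either P4 library leaves the difference of Mcm5 as it was. In 8 of the 13 peaks both P28 libraries lay below both P10 libraries (61.7% of all peaks) and in 0 of the 13 both lay above (10.1% of all peaks). Mcm6, Mcm7 and Mcm4 differed by 0.27, 0.33 and 0.06, which with centring were 0.87, 0.93 and 0.66, and none of these passed.

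Neither P2 against P4 nor P2 against P28 gave a call among the 13 peaks. From P2 to P4, 0 of the 13 peaks passed, where 0.00% of all peaks did with limma. The largest differences were those of Mcm7 (1.14, adjusted p = 0.31, limma) and the distal peak of Ccne1 (1.12, adjusted p = 0.29, limma). On the recovered reads, limma-voom also called 0 of the 13. Between P2 and P28, 0 of the 13 passed, where 12.6% of all peaks did, and limma-voom called 0. The promoter peak of Ccne1 had the largest difference, 1.46 (adjusted p = 0.061, limma). It was 2.24 without P2 replicate 3 and 1.87 without P28 replicate 4. Mcm5 differed by -0.09 between P2 and P28 (95% interval -1.10 to 0.92), and by -0.67 with centring (adjusted p = 0.29). Nr2e3, the rod factor whose peak also was highest at P10, measured 4.06, 14.4, 39.4 and 7.59 RPKM on average at P2, P4, P10 and P28. Gnat1, the rod transducin gene, measured 1.77, 8.01, 60.5 and 70.1 RPKM.

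**Figure D3:**
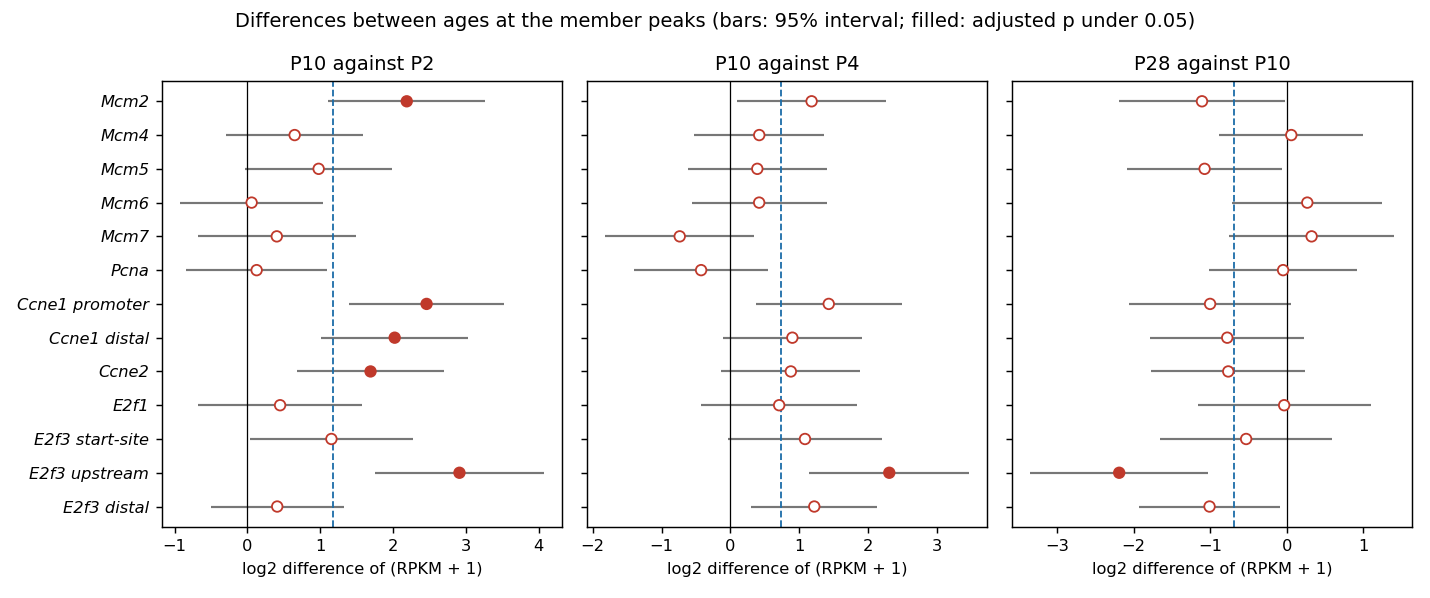
Log2 differences of RPKM + 1 (horizontal axis) at the 13 peaks for P10 against P2, P10 against P4 and P28 against P10; bars are 95% intervals, filled points were called, and the dashed blue line is the median over all 8996 peaks. E2f3 upstream is filled in all 3 panels, and Mcm6 and Pcna lie left of the median line in the first.

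Other genes of the same pathway were taken from 5 lists and read at the strongest peak of each gene within 50 kb of a start site. Over all protein-coding genes, 27.1% had such a peak, 46.8% of these were called between P2 and P10, and their median difference was 1.14. Of the same peaks, 13.3% were called from P4 to P10, 18.7% from P10 to P28 and 11.7% from P2 to P28. Peaks listed at P10 only, such as those of Chaf1a, Tyms, Tfdp1 and Cdkn2c, were again partly chosen by their P10 signal. With each library centred on its median, none of the 19 calls that the lists held from P2 to P10 remained. The 2 genes then called were lower at P10, Cdkn2b (-1.72, adjusted p = 0.018, limma), a kinase inhibitor, and Rfc4 (-1.48, adjusted p = 0.048, limma), a clamp loader subunit; both were named after their values were seen. Of the genes of origin licensing and firing, 8 of 24 had a peak. From P2 to P10, 2 of the 8 rose (25.0%), Gins2, a subunit of the GINS complex of the active helicase, at 1.62 (adjusted p = 0.020, limma), and Mcmbp, an MCM-binding protein, whose 3 reads at P2 against 11 at P10 gave a ratio of 3.37 (exact 95% interval 0.890 to 18.8). Gins2 measured 7.06 and 4.57 RPKM at P2, 6.92 and 14.87 at P4, 20.45 and 18.80 in the P10 libraries, and 7.94 and 3.94 in those of P28, and it fell from P10 to P28 by 1.63 (adjusted p = 0.037, limma; 0.096 with centring). Ticrr, which helps load CDC45, had the strongest peak of the list, at 6.58 to 16.17 RPKM, and was not called in any comparison. From P2 to P28, Mcmbp was the 1 gene of the list that rose, and with centring this call was lost (adjusted p = 0.071).

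Of the genes of the replication fork, 14 of 32 had a peak, and 5 of the 14 rose from P2 to P10 (35.7%). These were Chtf18 and Dscc1 of the alternative clamp loader, Rfc1 of the main clamp loader, Chaf1a of the histone chaperone CAF-1, and Rnaseh2a of the enzyme that removes RNA from DNA. Chaf1a measured 2.71 ± 0.36 RPKM at P2 and 10.0 ± 0.27 at P10 (SD, n = 2), a log2 difference of 1.57 (adjusted p = 0.014, limma). Rfc1 held 1 read at P2, and its ratio at P10 was 8.27 (exact 95% interval 1.15 to 362). From P4 to P10, Chaf1a, Chtf18 and Rnaseh2a rose (21.4%, against 13.3% of all genes with a peak). From P2 to P28 Rfc1 did (12 reads against 1), which was 7.14% of the list against 11.7%. None of these calls held with centring: Chaf1a then differed by 0.39 between P2 and P10 (adjusted p = 0.52), the rises from P4 had adjusted p of 0.25 to 0.49, and Rfc1 at P28 had 0.17. The strongest peaks of the list were those of Rpa2, of the single-strand binding complex, at 7.93 to 16.16 RPKM, and of Pold1, a polymerase subunit. Rpa2 and Pold1 were called in no comparison.

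Of the genes of nucleotide supply, 4 of 7 had a peak and 2 of the 4 rose from P2 to P10 (50.0%), Tyms, thymidylate synthase (1.81, adjusted p = 0.0076, limma), and Dut, which removes dUTP (1.26, adjusted p = 0.037, limma). Dut also rose from P2 to P28 (adjusted p = 0.032, limma; 0.15 with centring). With centring, Tyms differed by 0.62 (adjusted p = 0.45) and Dut by 0.08 (adjusted p = 0.92) between P2 and P10. Rrm1, of ribonucleotide reductase, with the strongest peak of this list, and Dck, deoxycytidine kinase, differed by 1.00 and 0.30 and did not pass. Of the mitotic genes, 11 of 20 had a peak and 3 of the 11 rose from P2 to P10 (27.3%), the proliferation marker Mki67 (1.49, adjusted p = 0.034, limma) and the spindle checkpoint genes Mad2l1 and Bub1. Bub1 had 3 reads at P2 against 17 at P10, a ratio of 5.21 (exact 95% interval 1.51 to 27.7), and it rose from P2 to P28 too (0.20 with centring, as an adjusted p). The calls of Mki67, Mad2l1 and Bub1 from P2 to P10 were lost with centring (adjusted p = 0.70, 0.87 and 0.43). Bub1b did not pass in any comparison.

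Of the genes of G1/S control, 15 of 35 had a peak and 7 of the 15 rose from P2 to P10 (46.7%). They included inhibitors of cyclin-dependent kinases (Cdkn1b, Cdkn1c and Cdkn2c), the kinase gene Cdk4, Lin37 and Lin54 of the DREAM and MuvB complex, and Tfdp1, the dimer partner of E2F factors. A peak at -11918 bp from the start of Tfdp1 (chr8:13353023-13353252) measured 1.64 and 2.48 RPKM at P2, 1.66 and 4.97 at P4, 15.07 and 11.93 in the P10 libraries, and 0 and 1.42 in those of P28. It rose from P2 to P10 by 2.25 (adjusted p = 0.0015, limma), rose from P4 to P10 by 1.86 (adjusted p = 0.017), and fell from P10 to P28, with 2 reads against 44, a ratio of 0.0520 (exact 95% interval 0.00610 to 0.199). With centring it still fell by 2.61 on the log2 scale to P28 (adjusted p = 0.0056), while the rises did not (adjusted p = 0.15 and 0.18).

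Cdkn2c, a gene for an inhibitor of CDK4 and CDK6, had 1 read at P2 and 1 at P4, against 15 by P10 and 9 by P28, so that the ratio of P10 to P4 was 15.5 (exact 95% interval 2.39 to 654). It rose from P4 to P10 (adjusted p = 0.0020, limma; 0.029 with centring), from P2 to P10 and from P2 to P28. With centring the last 2 calls were lost (adjusted p = 0.069 and 0.074), and with TMM scaling of the reads in peaks all 3 were. Mycn, a proliferation factor of progenitors, went the other way. Its peak, 2393 bp downstream of the start (chr12:12937939-12938223), measured 7.51 and 9.35 RPKM at P2, 5.35 and 17.54 at P4, 6.63 and 9.63 in the P10 libraries, and 1.63 and 1.15 in those of P28. It fell from P10 to P28 by 1.92 (adjusted p = 0.016, limma) and from P2 to P28 by 1.98 (adjusted p = 0.021), and with centring by 1.32 (adjusted p = 0.049) and 2.56 (adjusted p = 0.0014). Lin54 and Cdkn1c also fell from P10 to P28, Rbl2 rose from P4 to P10, and none of these 3 changes passed with centring. In this list 26.7% of the peaks were called from P10 to P28 and 20.0% from P4 to P10, against 18.7% and 13.3% of all genes with a peak. Cdkn2d, the third strongest peak of the list, was called in no comparison.

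**Figure D4:**
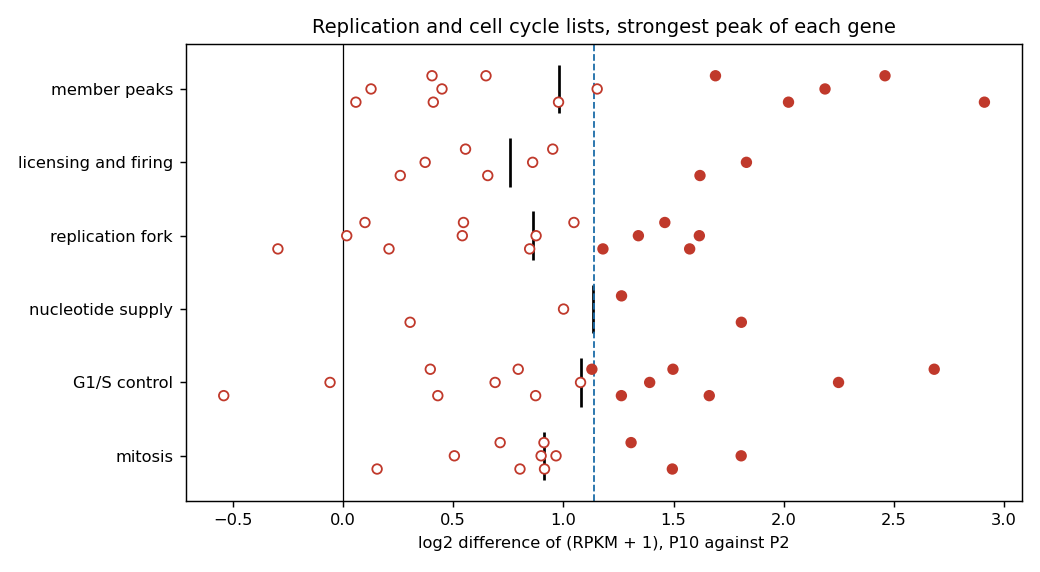
Log2 differences of RPKM + 1 between P10 and P2 (horizontal axis) for the 13 peaks and for the strongest peak of each gene of the 5 lists; filled points were called, black lines are medians, and the dashed line is the median over protein-coding genes with a peak (1.14). The black line of every list lies left of the dashed line, from 0.76 for licensing and firing to 1.13 for nucleotide supply.

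The 10 genes, each read at its strongest peak and relative to the median of its library, went both ways at P10. E2f3 upstream and Mcm2 lay above the median peak, Mcm2 by 0.85 on the log2 scale, and Pcna was at -0.73, Mcm4 at -0.70 and Mcm7 at -0.68. Their mean profile, in which these cancel, ran from -0.13 to 0.12 and shows nothing of the movement of any 1 gene. Among 1949 other genes with a promoter peak at or above the median signal, those of Pan2 (Pearson r = 0.89 over the 8 libraries), Hp1bp3 (0.82), Dctn2 (0.79) and Fndc3b (0.79) were most like this mean, which describes the mean alone.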

How the data were processed

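The deposited table gives RPKM for 8996 peaks, which the values show to be whole reads divided by 1 scale per library and by a width taken 39 rows earlier in each further column. Recovery gave whole reads for 100% of values (tolerance 0.001) and RPKM was rebuilt with each peak's own width; 1 value, that of Mcm6 in P28 replicate 4, needed an inferred width. The authors' peak lists give a signal and a score per peak, from which only ranks within each list were taken. The submitters' processing notes list MACS2 2.2.5, bedtools 2.29.0, Picard 2.20.8, SAMtools 1.9, Bowtie2 2.3.5.1 and Trimmomatic 0.38, with the builds ASM584v2 and GRCm38.p6, and no roles; the setting of the scales and the replicates behind each list are not stated in the sources used here. The 7 labelled libraries without a column were not analysed here.

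Values were tested as log2(RPKM + 1), a pseudocount of 1, with limma 3.58.1 in R 4.3.3 (trend and robust empirical Bayes, no filter, age as the one factor and 4 residual degrees of freedom). The fit was also run on simulated reads in which only peaks with many reads were changed, by a large factor. That run is no check of calls on weak peaks such as that of Ccne2. On this scale the change of a weak peak is understated. Whether replicates were separate animals is not in the labels, so a p-value measures only how these samples spread, which may be technical. The empirical Bayes step draws much of that spread from all peaks. The p-values and 95% intervals of the fit thus rest on more than the 4 residual degrees of freedom. Exact permutation over samples cannot go below p = 0.3333 for 2 against 2 and was not used. Genes with 1 to 3 reads at an age have a ratio of scaled reads with an exact 95% interval. Depth was 49430 to 227692 reads in peaks, and intervals from reads cover counting error only.

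The members and lists were chosen with earlier results of these data known; some list genes are not reported here. Named from each list were the genes called in any of the 5 comparisons and the 3 with the strongest peak; likeness was ranked by Pearson r over the libraries. Alternatives were pseudocounts of 0.1 and 5, median centring, TMM scaling, the values as deposited, a minimum of 5 mean reads, a replicate block, limma-voom, and leaving out each library. Tables and figures were made with pandas 2.3.3, NumPy 2.4.6, Matplotlib 3.10.9 and SciPy 1.17.1 in Python 3.11.15.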

Additional observations from a re-analysis of the deposited data

How the results depend on the processing

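No called difference of the 13 peaks changed sign under any alternative run; of the 65 differences, 20 that were not called did so with centring, 20 with TMM scaling and 9 with the values as deposited. From P10 against P2, 5 peaks were called, 1 with centring, 1 with TMM, 3 as deposited and 4 to 7 without each library; only E2f3 upstream held with centring and with TMM, and it was lost as deposited (adjusted p = 0.12). For P10 against P4 the 1 call became 0 with a pseudocount of 0.1, with TMM and as deposited, 4 with a pseudocount of 5, 2 with at least 5 mean reads, 3 with limma-voom (chosen after seeing the data) and 0 to 4 without each library. For P28 against P10 the 1 call became 0 with a pseudocount of 0.1, 3 with one of 5 and 0 to 2 without each library; as deposited E2f3 upstream was lost (0.096) and Mcm5 was called (-2.27). For P28 against P2, 0 became 1 with at least 5 mean reads and 0 to 1 without each library; P4 against P2 stayed at 0. The replicate block gave 0 calls for P10 against P4, 0 for P28 against P10 and 4 for P10 against P2; same-numbered libraries deviated together little (r = 0.0853, 0.0500 and 0.0291), so the numbers were not taken as pairs.

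Over the 5 lists, 19 genes were called for P10 against P2 (7 with a pseudocount of 0.1, 2 with centring and 1 with TMM, none of them among the 19, 6 as deposited, 4 with the replicate block, 4 to 25 without each library), 6 for P10 against P4 (0, with 12 at a pseudocount of 5, 2 with centring of which 1 was among the 6, 0 with TMM, 0 with the block, 1 to 13), 5 for P28 against P10 (1, with 8 at a pseudocount of 5, 4 with centring of which 2 were among the 5, 1 with TMM, 2 as deposited, 1 with the block, 1 to 6), 6 for P28 against P2 (0, 1 with centring, 1 with TMM, 1 as deposited, 3 with at least 5 mean reads, 3 with limma-voom, 1 to 7) and 0 for P4 against P2 (0 to 1). Over all peaks the calls for P4 against P2 were 0 (0 to 88 under alternatives, 0 to 836 without each library), for P10 against P4 1541 (8 to 2818, 215 to 3040), for P28 against P10 1974 (432 to 3116, 507 to 2691), for P28 against P2 1137 (336 to 1309, 604 to 1650) and for P10 against P2 4500 (931 to 5105, 2178 to 5100). With an overlap of 50% the P2 list held 1 of the 13 peaks, and among the strongest 1221 peaks P4 held 0, P10 held 2 and P28 held 1. The planned edgeR and DESeq2 tests were not run because the table holds RPKM. The cause of these shifts was not tested; with 0 to 48 reads per peak and library, depth limits every value.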
